A study of Rattus norvegicus with 5 samples.

Results

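Genes of phase II metabolism were followed in the liver of rats of 2 strains. These genes encode the enzymes that attach a polar group to drugs, steroids, bilirubin and reactive by-products. The set held every probe set annotated with 1 gene, by a symbol that begins with Gsta, Gstm, Gstp, Gstt, Gstk, Gsto, Gstz, Ugt1, Ugt2, Sult, Nat and a digit, Akr1c or Akr7a. It came to 32 probe sets of 32 genes, out of 8797 probe sets measured, 7603 of which had a single symbol. A probe set that lists Sult1e1, the oestrogen sulfotransferase, under 2 gene entries was left out with those of several genes. No such probe set began with Gstz or Ugt1, so 11 of the 13 families were represented.

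PD, the progenitor strain, was compared with a congenic strain written PD.SHR4 in the sample labels and PD.SHR4a in the series text, in which a segment of chromosome 4 of the spontaneously hypertensive rat SHR was placed on the PD background. All rats were males aged 4 months on standard chow, with 8 rats per strain. Labelled cDNA was pooled for each strain and hybridised to 3 PD arrays and 2 congenic arrays (Affymetrix Rat Exon 1.0 ST). The labels do not tell whether separate rats lie behind each array. A p-value here therefore rests on array-to-array spread, which may be technical. Values are on the log2 scale after RMA, which subtracts background, equalises the arrays and summarises the probes of a gene. Differences are congenic minus PD.

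Phase II enzymes act in families. Glutathione transferases (Gst) join glutathione to electrophiles. UDP-glucuronosyltransferases (Ugt) transfer glucuronic acid, sulfotransferases (Sult) transfer sulfate from the donor PAPS, and N-acetyltransferases (Nat) transfer acetyl groups. The Nat symbols cover the arylamine enzyme Nat3 and also Nat8, Nat8b and Nat8f1, which are not arylamine enzymes. The aldo-keto reductases Akr1c and Akr7a reduce ketosteroids and aldehydes; they add no group, but share regulation and substrates with the conjugating enzymes. In liver, several of these genes respond to the transcription factor Nrf2 through antioxidant response elements and to the xenobiotic receptors CAR and PXR.

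Promoter sequence is shown for 5 members: Nat8 and Gstm3, which had the largest strain differences of the set, and Gstm5, Gstm7 and Gstp1, which with Nat8 hold the core of the antioxidant response element before the transcription start. Each line gives the 250 bases before the start, 5′ to 3′ on the gene's strand, from RefSeq (GRCr8), and capitals mark the core, TGACNNNGC.
Nat8 (chr4:119837765-119838014, minus strand): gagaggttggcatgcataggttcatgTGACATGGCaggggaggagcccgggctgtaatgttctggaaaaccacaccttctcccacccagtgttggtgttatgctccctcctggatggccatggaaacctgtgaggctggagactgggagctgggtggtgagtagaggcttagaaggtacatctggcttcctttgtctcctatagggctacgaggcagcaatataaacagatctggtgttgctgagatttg
Gstm3 (chr2:198300668-198300917, minus strand): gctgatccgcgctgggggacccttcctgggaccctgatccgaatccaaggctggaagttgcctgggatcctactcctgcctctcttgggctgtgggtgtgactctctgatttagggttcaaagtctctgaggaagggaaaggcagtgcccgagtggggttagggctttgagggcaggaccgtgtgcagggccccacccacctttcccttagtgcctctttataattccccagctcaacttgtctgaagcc
Gstm5 (chr2:198219519-198219768, plus strand): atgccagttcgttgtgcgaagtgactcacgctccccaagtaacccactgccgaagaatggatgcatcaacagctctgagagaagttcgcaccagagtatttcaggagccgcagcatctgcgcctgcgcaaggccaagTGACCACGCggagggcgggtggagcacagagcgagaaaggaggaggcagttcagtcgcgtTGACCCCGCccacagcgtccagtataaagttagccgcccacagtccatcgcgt
Gstm7 (chr2:198260320-198260569, minus strand): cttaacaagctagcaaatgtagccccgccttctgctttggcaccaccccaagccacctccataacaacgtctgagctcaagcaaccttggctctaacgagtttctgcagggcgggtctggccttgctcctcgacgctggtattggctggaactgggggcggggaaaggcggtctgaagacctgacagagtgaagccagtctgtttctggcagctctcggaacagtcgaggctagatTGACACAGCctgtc
Gstp1 (chr1:210769706-210769955, minus strand): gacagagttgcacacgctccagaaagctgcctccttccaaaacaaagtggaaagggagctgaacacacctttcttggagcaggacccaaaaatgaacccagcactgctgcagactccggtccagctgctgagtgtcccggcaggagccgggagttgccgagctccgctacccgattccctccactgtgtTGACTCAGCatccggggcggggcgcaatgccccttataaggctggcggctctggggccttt

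The core lay 224 bases before the start in Nat8, 113 and 53 bases before it in Gstm5, 14 bases before it in Gstm7 and 61 bases before it in Gstp1. In Gstm3 these letters were not in the window. RefSeq promoters of 300 bases (250 before and 50 after the start) were found for 28 of the 32 members. On either strand, TGACNNNGC was in 5 of the 28, against 12.2% of all 27457 promoters, the fifth being Nat8b, where it lay after the start. GCGTG, the core of the xenobiotic response element, was in 7 of 28, against 31.1%. AGGTCA, a recognition hexamer of nuclear receptors, was in 4 of 28, against 15.7%. TTATGTAA, a site of clock-output factors such as Dbp, was in 0 of 28, against 0.881%. A match describes the letters and not a bound site.

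No member passed the test between the strains. Over all 8797 probe sets, 82 passed (limma, adjusted p under 0.05), which is 0.932%, and 1211 had an unadjusted p under 0.05, which is 13.8%. Those that passed higher in the congenic strain were 0.273% and those that passed lower 0.659%. Of the 32 members, 0 passed and 4 had an unadjusted p under 0.05: Gstm3, Nat8, Gsta6 and Nat8b. There were 20 members with a difference above 0 and 12 below, with a median of 0.033, against a median of 0.00020 over all probe sets. Arrays of one strain lay clear of those of the other for 9 of the 32 members, 6 with the congenic arrays above and 3 below, and for 31.9% of all probe sets (14.8% above and 17.1% below). A difference of under 0.5 in size was found for 26 of the 32 members and for 89.1% of all probe sets. The 95% interval of the difference (limma, not adjusted for many tests) lay within a 2-fold change either way for 26 of the 32. It reached past 2-fold for Gstm3, Akr7a3, Nat8b, Gstm5 and Akr1c3, so a change of that size could be missed there. For Nat8 the interval lay wholly past 2-fold, at 1.66 to 4.31. On simulated arrays, the same test recovered 76% of log2 differences of 1 and 12% of log2 differences of 0.585. Those arrays had independent noise for each probe set, no shift shared across an array, and changed probe sets picked at random. The rates are therefore not those of the members, whose spread between PD arrays was larger than that over all probe sets.

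**Figure D1:**
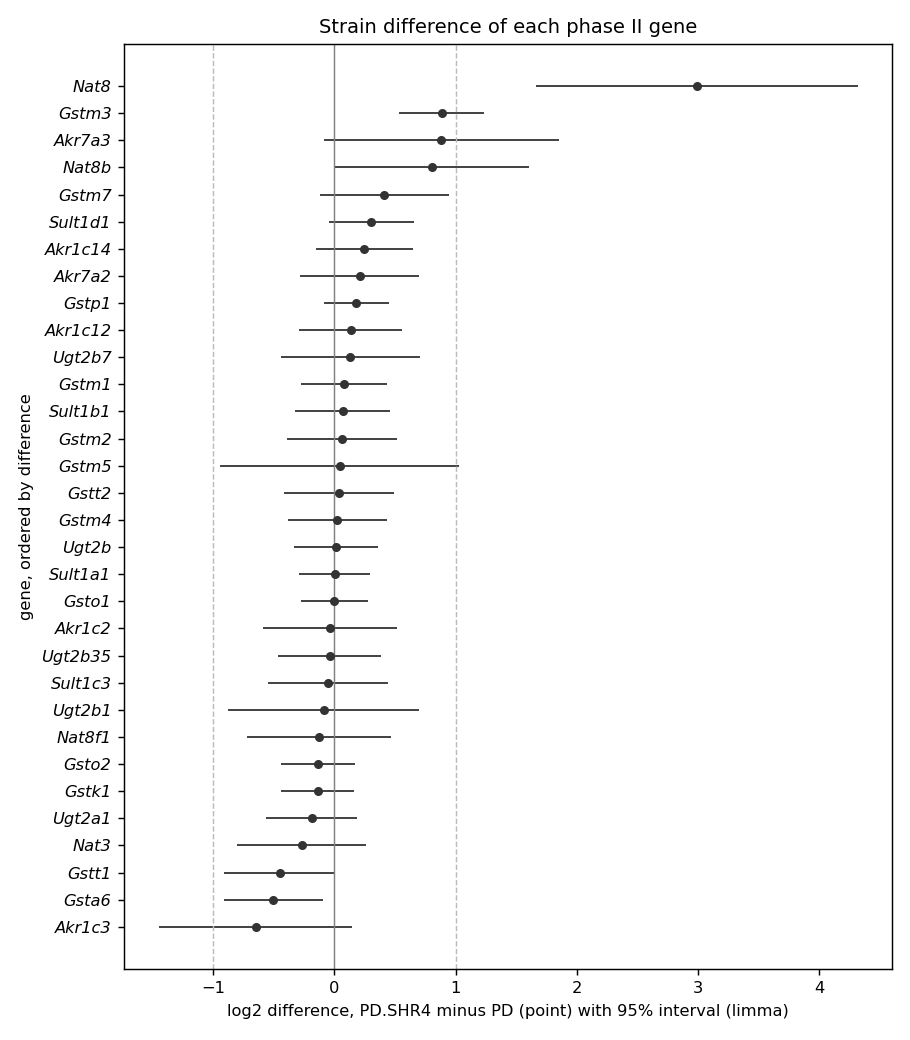
The log2 difference of each of the 32 genes (horizontal axis, congenic minus PD, points) with its unadjusted 95% limma interval (bars), ordered by size on the vertical axis; dashed lines mark a 2-fold change. Nat8 stands apart at 2.99, and most other points lie near 0.

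The widest difference of the set was that of Nat8, in the group of N-acetyltransferase symbols. Nat8, whose human counterpart acetylates cysteine conjugates in the last step from glutathione conjugates to mercapturic acids, was at 3.68, 5.59 and 4.40 in PD and at 7.32 and 7.77 in the congenic strain. Both congenic arrays were above every PD array, and the PD arrays were spread over 1.91. The difference was 2.99 ± 0.54 (SE), or 7.93-fold, the largest in size of the members and exceeded by 7 other single-symbol probe sets, but it did not pass (limma, adjusted p = 0.0804). Without PD array 2 it was 3.50 and passed (limma, adjusted p = 0.0398). Without PD array 1 or PD array 3 it did not pass, and over the 5 fits that left out 1 array it ranged from 2.55 to 3.50. With either congenic array left out, no probe set of the 8797 passed, so those fits are read by their differences only.

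Nat8b, a close relative, measured 5.08, 6.21 and 5.83 in PD and 6.59 and 6.43 in the congenic strain. Its congenic arrays were again the higher ones, with a difference of 0.80 ± 0.33 (SE; limma, adjusted p = 0.361). Nat8f1, a further relative, was near the floor, with 3 of its 5 values below the lower quartiles of their arrays. The strains overlapped, with a difference of -0.12 ± 0.24 (SE). The difference of Nat8f1 was 0.028 with array weights, so its direction was not stable. Nat3, an arylamine N-acetyltransferase, was low, at 1.84, 1.39 and 1.28 in PD and 1.43 and 1.05 in the congenic strain. All 5 values lay below the lower quartiles of their arrays (2.84 to 2.93), and the strains overlapped.

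Nat8, Nat8b, Nat8f1 and Gstk1 lie on chromosome 4, the chromosome of the congenic segment. In the RefSeq gene order, 314 protein-coding genes separate Gstk1 from Cd36, 633 separate Nat8 from it, 636 Nat8f1 and 638 Nat8b, so the Nat8 genes are near neighbours of each other. The sources used here do not give the ends of the congenic segment, so whether these genes lie inside it was not tested. Of 479 single-symbol probe sets on chromosome 4, 1 rose and 5 fell (limma, adjusted p under 0.05). Of all 7603 single-symbol probe sets, 23 rose and 47 fell. Over all 8797 probe sets the shares were 0.273% and 0.659%, and no difference from these shares was tested. Cd36, the gene that SHR lacks in working form, measured 7.35, 7.83 and 7.93 in PD and 4.18 and 4.85 in the congenic strain, through a probe set shared with Cd36l1.

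**Figure D2:**
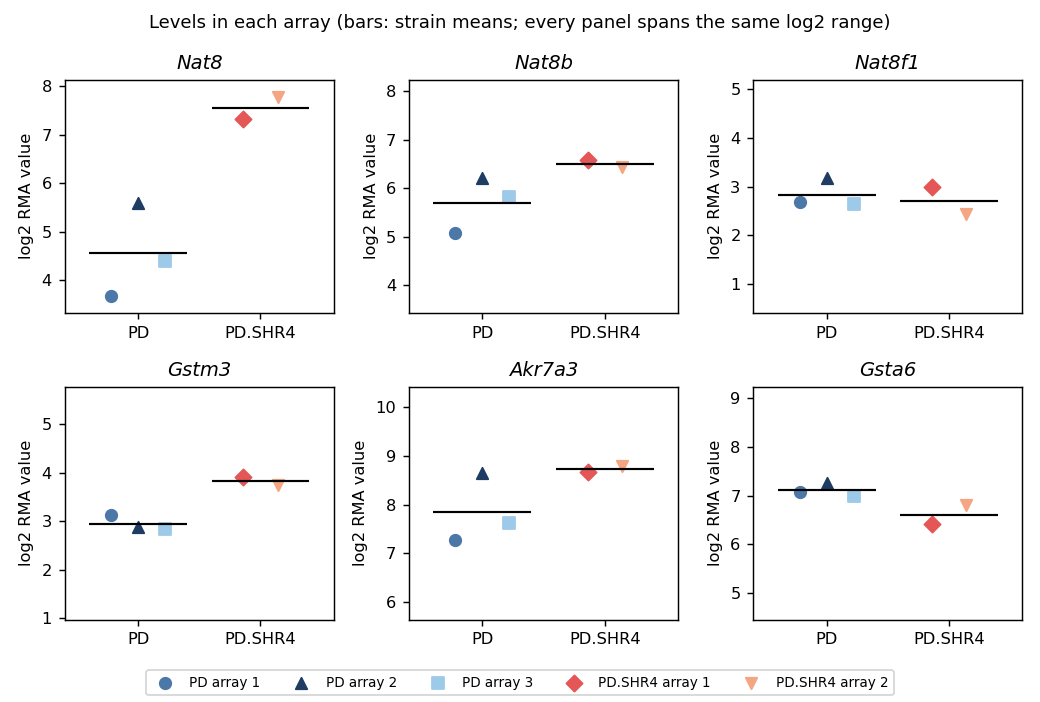
Log2 RMA value (vertical axes, all of the same span) of 6 members in each PD and congenic array; symbols are single arrays and bars are strain means. The congenic arrays lie above the PD arrays for Nat8, Nat8b, Gstm3 and Akr7a3 and below them for Gsta6, and Nat8f1 overlaps.

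Glutathione transferases made up 13 members, 9 with differences above 0 and 4 below, and none passed. The 6 mu class genes (Gstm), which conjugate epoxides and other electrophiles, were all above 0, with a median of 0.071. Gstm3 accounted for the clearest separation. It measured 3.13, 2.88 and 2.83 in PD and 3.91 and 3.75 in the congenic strain, near the lower quartile of the arrays in PD. The difference was 0.89 ± 0.14 (SE; 1.85-fold) and narrowly missed the threshold (limma, adjusted p = 0.0654). It passed when the dimmest 25% of probe sets were left out (limma, adjusted p = 0.0426) and after a further quantile normalisation (limma, adjusted p = 0.0479). With array weights, where 9.31% of all probe sets passed, Gstm3 also passed (limma, adjusted p = 0.00790). Over the alternatives that kept both congenic arrays, its adjusted p (limma) ran from 0.00790 to 0.222. Over all 12 alternatives the difference ran from 0.81 to 0.98.

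Gstm7 measured 9.84, 10.24 and 9.69 in PD and 10.54 and 10.14 in the congenic strain, and PD array 2 exceeded the lower congenic array. Gstm1 measured 11.88, 12.15 and 11.82 in PD and 12.01 and 12.05 in the congenic strain, with a difference of 0.080 ± 0.14 (SE). Gstm2, Gstm4 and Gstm5 had differences of 0.063, 0.026 and 0.044, smaller than the spread between PD arrays. The direction of all 3 turned below 0 without PD array 1.

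The alpha class, abundant in hepatocytes, was represented by Gsta6 alone, because its other probe sets carry several symbols. Gsta6 measured 7.07, 7.27 and 6.99 in PD and 6.42 and 6.80 in the congenic strain. Its congenic arrays were both lower, with a difference of -0.50 ± 0.17 (SE; limma, adjusted p = 0.259). Gstt1, a theta class enzyme that acts on small halogenated compounds, measured 8.44, 8.99 and 8.70 in PD and 8.34 and 8.18 in the congenic strain. Both congenic arrays were again lower (difference -0.45 ± 0.19 SE; limma, adjusted p = 0.374), whereas Gstt2, at 9.09, 9.60 and 9.15 against 9.31 and 9.33, overlapped.

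Gstp1, the pi class enzyme known for its appearance in preneoplastic foci of rat liver, measured 5.07, 5.08 and 5.11 in PD and 5.29 and 5.24 in the congenic strain. The arrays did not overlap, but the difference was small, at 0.18 ± 0.11 (SE; limma, adjusted p = 0.559). Gstk1, found in mitochondria and peroxisomes, measured 10.58, 10.80 and 10.68 in PD and 10.58 and 10.52 in the congenic strain, with a difference of -0.14 ± 0.12 (SE). The omega class reduces dehydroascorbate among other substrates. Gsto1 measured 9.53, 9.62 and 9.52 against 9.54 and 9.58, and Gsto2 measured 4.54, 4.63 and 4.74 against 4.56 and 4.45. Both overlapped, and the interval of Gsto1 ran from -0.27 to 0.28.

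The 5 glucuronosyltransferases were all of the Ugt2 family, and all of them overlapped between the strains. Their median difference was -0.039, with 2 above 0 and 3 below, and its sign was not stable: leaving out PD array 2 gave 0.10 and leaving out PD array 3 gave -0.11. Ugt2a1, known from olfactory tissue, measured 1.97, 1.93 and 1.80 in PD and 1.89 and 1.53 in the congenic strain, and Ugt2b7 measured 1.61, 2.31 and 1.66 against 1.98 and 2.00. Both lay below the lower quartile on all 5 arrays, as did 20.9% of all probe sets. Ugt2b1 had the widest spread of the family, at 6.76, 6.93 and 5.96 in PD and 6.68 and 6.24 in the congenic strain, and its interval ran from -0.87 to 0.70. Ugt2b and Ugt2b35 were bounded more closely, with differences of 0.014 (interval -0.33 to 0.36) and -0.039 (interval -0.46 to 0.38).

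Among the 4 sulfotransferases the median difference was 0.038. Sult1a1, the main phenol sulfotransferase, had a difference of 0.0056 with an interval of -0.29 to 0.30, and its sign turned after a further quantile normalisation. Sult1b1, which sulfates thyroid hormones, measured 11.11, 11.52 and 11.44 in PD and 11.45 and 11.40 in the congenic strain. Sult1c3 measured 11.13, 11.60 and 11.04 against 11.11 and 11.30. These 3 overlapped. Sult1d1 did not, at 2.54, 2.19 and 2.33 in PD and 2.65 and 2.66 in the congenic strain (difference 0.30 ± 0.14 SE; limma, adjusted p = 0.443), but every value was below the lower quartile of its array.

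Of the 6 aldo-keto reductases, Akr7a3, the aflatoxin aldehyde reductase, had the largest difference. It measured 7.28, 8.64 and 7.62 in PD and 8.68 and 8.79 in the congenic strain. PD array 2 was close to the lower congenic array, and the difference was 0.88 ± 0.40 (SE; limma, adjusted p = 0.414). With array weights, where 9.31% of all probe sets passed, Akr7a3 was at 1.08 and passed (limma, adjusted p = 0.0337). Akr7a2, which reduces succinic semialdehyde, measured 8.68, 9.31 and 8.93 in PD and 9.18 and 9.19 in the congenic strain, and overlapped.

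The Akr1c genes had a median difference of 0.050, which became -0.062 when PD array 1 was left out and 0.21 when PD array 2 was, and all 4 overlapped between the strains. Akr1c3 had a difference of -0.65 ± 0.32 (SE; limma, adjusted p = 0.470), the lowest of the members as fitted. Without PD array 2 it was -0.36, with array weights -0.23 and without congenic array 2 -0.52. Gsta6 was then lower, at -0.42, -0.41 and -0.69. Akr1c3 measured 4.96, 5.57 and 4.46 in PD and 4.48 and 4.22 in the congenic strain. Akr1c14, the 3-alpha-hydroxysteroid dehydrogenase, measured 11.15, 11.58 and 11.42 in PD and 11.56 and 11.70 in the congenic strain. Akr1c12 measured 10.34, 10.70 and 10.21 against 10.55 and 10.55, and Akr1c2 had a difference of -0.038, which turned to 0.016 after median centring.

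PD array 2 stood above the other PD arrays for most of the members. It held the highest PD value for 26 of the 32 members, whereas over all probe sets it did so for 48.2%. The median deviation of the members from their PD mean was 0.28 on PD array 2, against 0.048 over all probe sets, and -0.12 on each of PD arrays 1 and 3. In Gstp and Gsto, PD array 3 had the higher median deviation. This was not particular to the members. PD array 2 was also the highest PD array for 11 of 13 genes that export or cleave conjugates and 7 of 9 genes of glutathione supply. The same held for 6 of 8 stellate cell markers and 3 of 4 genes of UDP-glucuronic acid supply. For other lists the share was lower: 19 of 30 regulators and 9 of 15 other conjugating enzymes (63.3% and 60.0%). PD array 2 was also the highest for 12 of 21 probe sets of reductases and hydrolases and 4 of 7 genes of PAPS supply (57.1% in both). It was the highest for 4 of 10 hepatocyte, 1 of 8 macrophage and 0 of 10 lymphocyte markers. Over all probe sets, PD array 2 had the highest upper quartile of the arrays, 7.65, and the lowest lower quartile, 2.84. On the congenic arrays the median deviation of the members was 0.047 and 0.044. The spread among PD arrays was the larger one, with a median SD of 0.26 for the members (0.18 over all probe sets), against 0.074 between the congenic arrays (0.093 over all). For 27 of the 32 members the strain difference was smaller than the range of the PD arrays, as for 76.0% of all probe sets. Without PD array 2, 25 members were above 0 and 7 below, with a median of 0.16. Without PD array 1, 13 were above 0 and 19 below, with a median of -0.045. Whether the same rats or extracts lay behind each PD array is not stated, and the source of this spread was not tested.

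**Figure D3:**
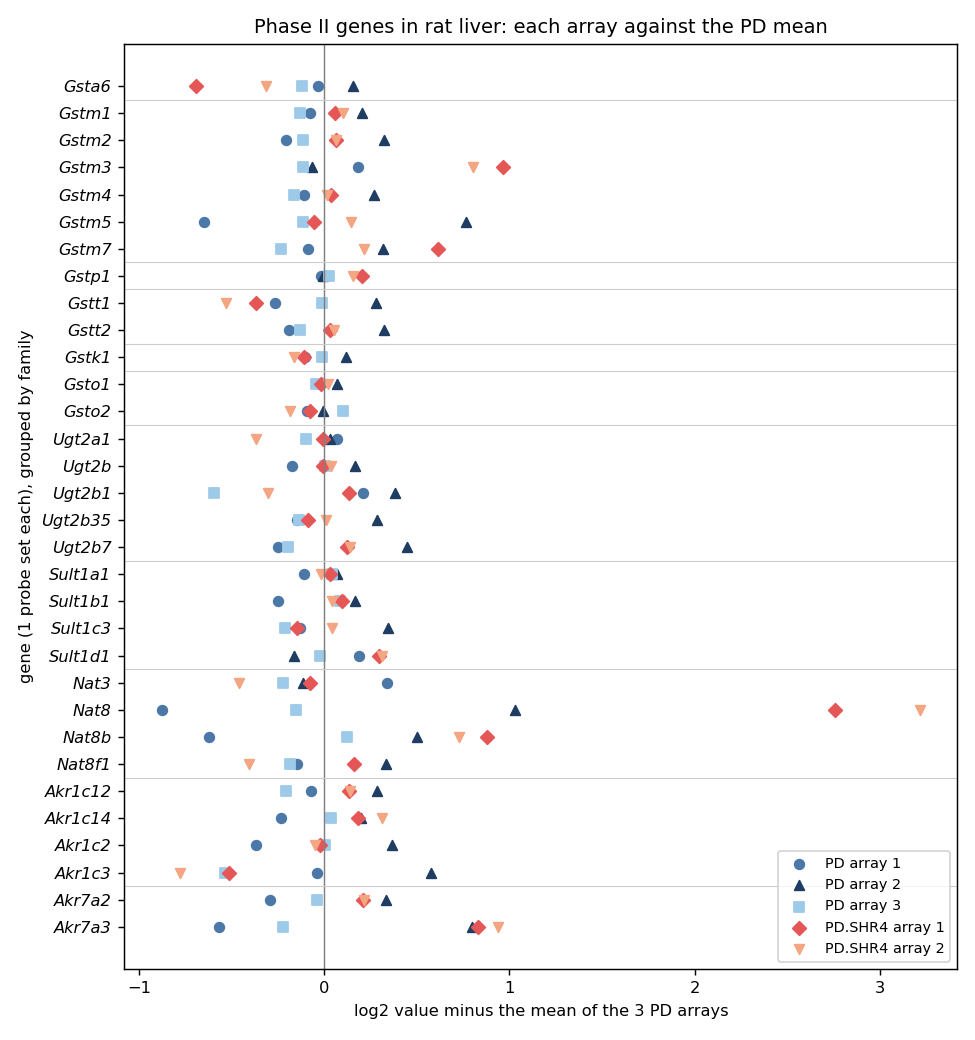
Log2 value of each of the 32 genes on each array minus its mean over the 3 PD arrays (horizontal axis), genes grouped by family on the vertical axis. Dark triangles (PD array 2) lie to the right of the other PD arrays for 26 genes, and the congenic arrays lie beyond all PD arrays for Nat8, Gstm3 and 7 others.

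**Figure D4:**
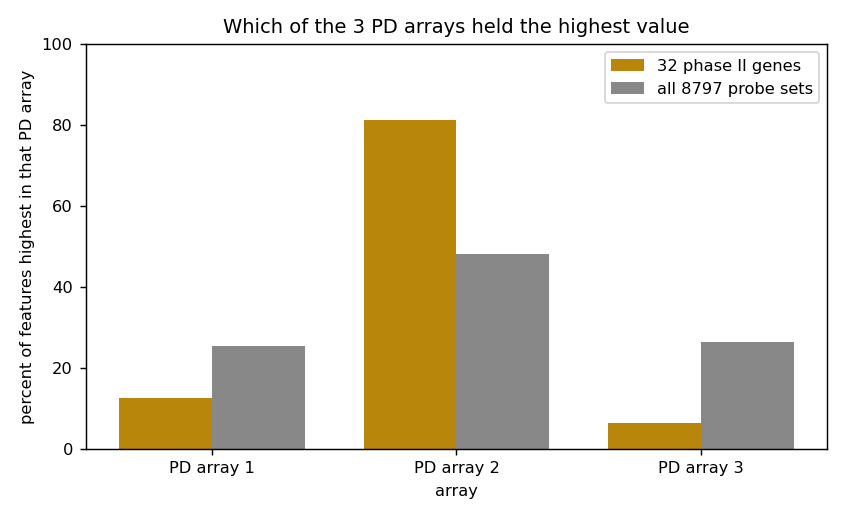
Percent of features (vertical axis, bars from 0) for which each PD array (horizontal axis) held the highest of the 3 PD values, for the 32 phase II genes and for all 8797 probe sets. PD array 2 holds 26 of the 32 genes, against 48.2% of all probe sets.

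Genes that supply the conjugating enzymes were then read from the same fit. Of 9 measured genes of glutathione supply, 1 rose, none fell and 8 did not pass, with a median of 0.44. Gclc, the catalytic subunit of glutamate-cysteine ligase that limits glutathione synthesis, rose from 8.67, 8.98 and 8.65 in PD to 9.79 and 9.96 in the congenic strain (difference 1.11 ± 0.15 SE; limma, adjusted p = 0.0457). Gss, glutathione synthetase, measured 7.63, 8.65 and 7.95 against 9.35 and 9.31 (difference 1.25 ± 0.30 SE; limma, adjusted p = 0.144), and Oplah, the 5-oxoprolinase of the glutathione cycle, had a difference of 0.48 ± 0.11 (SE). These 3 were named for their smallest p. The congenic arrays lay above every PD array for 6 of the 9 genes, these 3 among them, and below for 1. Over all probe sets these shares were 14.8% and 17.1%. Gclc passed without PD array 2 and did not pass without PD array 1 or PD array 3, and over the 5 fits that left out 1 array its difference was 1.03 to 1.22. Gss also passed without PD array 2 (limma, adjusted p = 0.0462).

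Supply of the other donors had medians nearer 0, and none of those genes passed. For UDP-glucuronic acid, 4 genes had a median of -0.024; Ugdh, which makes the donor from UDP-glucose, measured 9.80, 10.18 and 9.85 in PD and 10.34 and 10.56 in the congenic strain (difference 0.51 ± 0.17 SE; limma, adjusted p = 0.257). Slc35b1 and Pgm1 had differences of -0.28 and -0.028, and Pgm1 turned above 0 after median centring. For sulfate and the sulfate donor PAPS, 7 genes had a median of 0.056. Slc26a1, a sulfate transporter, was at 0.48 ± 0.14 (SE; limma, adjusted p = 0.212), Cth, which makes cysteine from cystathionine, at -0.43 ± 0.25 (SE), and Suox, sulfite oxidase, at -0.21 ± 0.16 (SE).

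Of 15 other conjugating enzymes, 1 fell, none rose and 14 did not pass, with a median of -0.0058. Ltc4s, which joins glutathione to leukotriene A4, fell from 7.72, 7.41 and 7.62 in PD to 5.39 and 5.32 (difference -2.23 ± 0.14 SE; limma, adjusted p = 0.00737). It passed with any 1 PD array left out, and its difference stayed between -2.31 and -2.16 over the 5 fits that left out 1 array. Hpgds, the haematopoietic prostaglandin D synthase of the glutathione transferase fold, was at -0.94 ± 0.22 (SE; limma, adjusted p = 0.143), and As3mt, the arsenite methyltransferase, at 0.42 ± 0.12 (SE; limma, adjusted p = 0.190). No macrophage, lymphocyte, neutrophil or hepatocyte marker passed. Of 8 macrophage markers 7 had differences below 0, as Ltc4s did, with a mean level of 9.10 to 9.25 on the PD arrays and 8.76 to 8.78 on the congenic arrays. Of 10 lymphocyte markers 8 were below 0, with a mean level of 4.84 to 5.08 in PD and 4.34 to 4.35 in the congenic strain, and both neutrophil markers were below 0. Their part in the result was not tested, and in whole tissue fewer cells of a type and less RNA per cell cannot be told apart. The 10 measured hepatocyte markers had a mean level of 12.76 to 12.80 on the PD arrays, 12.73 to 12.75 on the congenic arrays, and a median difference of -0.044.

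The list of reductases and hydrolases commonly regulated with phase II genes held 21 probe sets of 20 genes, of which 1 rose, 1 fell and 19 did not pass. Dhrs4, a carbonyl and retinal reductase, rose from 8.64, 8.66 and 8.67 to 9.44 and 9.56 (difference 0.84 ± 0.11 SE; limma, adjusted p = 0.0457). Hmox1, haem oxygenase 1, fell from 7.80, 7.57 and 7.86 to 6.82 and 6.74 (difference -0.97 ± 0.14 SE; limma, adjusted p = 0.0489). Ephx2, the soluble epoxide hydrolase, was at 1.42 ± 0.21 (SE; limma, adjusted p = 0.0545). The widest difference of the list was that of Akr1b7, an aldose reductase-like gene chosen after its value was seen: it measured 6.41, 5.85 and 8.43 in PD and 2.88 and 2.65 in the congenic strain (difference -4.13 ± 0.73 SE; limma, adjusted p = 0.0784). With 1 PD array left out, Dhrs4 passed in none of the 3 fits and Hmox1 in 1, that without PD array 2. Hmox1 did not pass after median centring or a further quantile normalisation (limma, adjusted p = 0.0747 and 0.0888), whereas Dhrs4 did. With the replicate block neither Dhrs4 nor Hmox1 passed (limma, adjusted p = 0.0792 and 0.0619). Over the 5 fits that left out 1 array, the difference of Dhrs4 was 0.78 to 0.90 and that of Hmox1 -1.05 to -0.90. Nqo1, a textbook target of Nrf2 chosen after its value was seen, was at -0.32 ± 0.11 (SE; limma, adjusted p = 0.294).

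Of 30 regulators, 2 rose, none fell and 28 did not pass, with a median of 0.10. Nr1i3, which encodes CAR, rose from 5.93, 6.57 and 6.03 in PD to 7.91 and 8.12 (difference 1.84 ± 0.22 SE; limma, adjusted p = 0.0392). The clock-output factor Dbp rose from 7.19, 5.70 and 5.34 to a congenic mean of 10.08 ± 0.11 (SD, n = 2; difference 4.01 ± 0.54 SE; limma, adjusted p = 0.0457). Ppara, the fatty acid receptor, was at 1.99 ± 0.31 (SE; limma, adjusted p = 0.0606), and Nfe2l2, which encodes Nrf2 and was chosen after its value was seen, at 0.44 ± 0.16 (SE; limma, adjusted p = 0.310). Of the 3 fits that left out 1 PD array, Nr1i3 passed in that without PD array 2 and Dbp in that without PD array 1. After a further quantile normalisation Nr1i3 passed and Dbp did not (limma, adjusted p = 0.0168 and 0.0528). Over the 5 fits that left out 1 array, the difference of Nr1i3 was 1.72 to 2.03 and that of Dbp 3.64 to 4.56. The regulators and the 32 members were measured on the same arrays, and no relation between them was tested.

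Of 13 genes that export or cleave conjugates, 10 were above 0 and 3 below, with a median of 0.22, and none passed. Abcb1a, a drug efflux pump, was at 0.98 ± 0.16 (SE; limma, adjusted p = 0.0671). Sts, which removes sulfate from steroids, was at 0.65 ± 0.12 (SE; limma, adjusted p = 0.0831), and Slco1a4, a sinusoidal organic anion carrier, at 1.31 ± 0.40 (SE; limma, adjusted p = 0.225). These 3 were named for their smallest p. The congenic arrays were above every PD array for 6 of the 13 genes, these 3 among them, and for 14.8% of all probe sets.

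**Figure D5:**
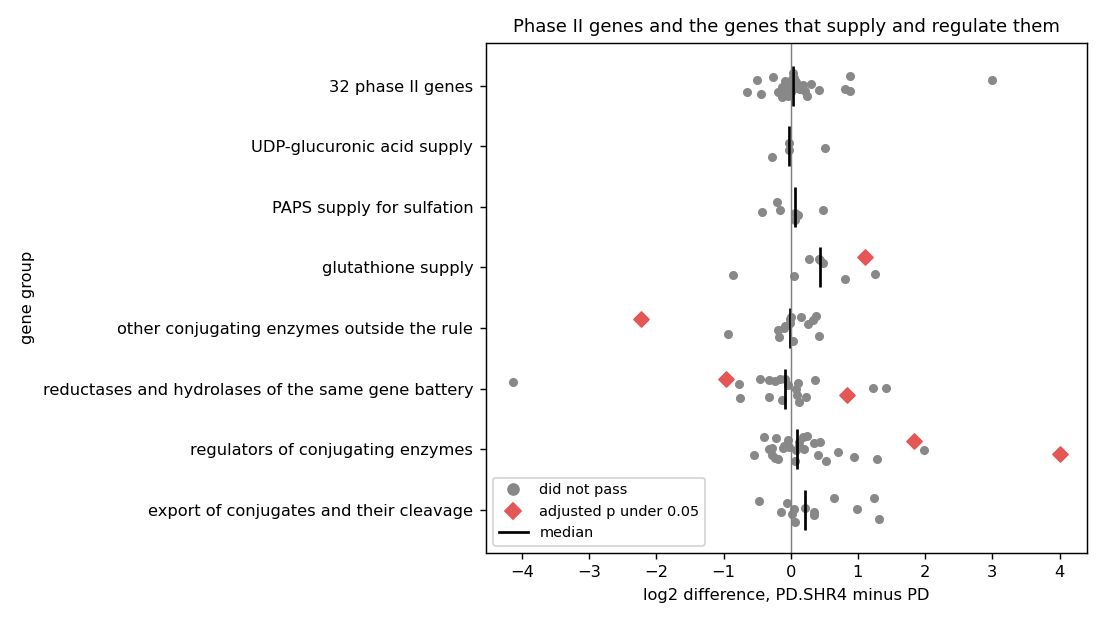
Log2 difference (horizontal axis, congenic minus PD) of the 32 phase II genes and of 7 lists of genes that supply donors, regulate them or act beside them (vertical axis); each point is a probe set, red diamonds passed limma at an adjusted p under 0.05 and black bars are medians. No phase II gene passed, and Gclc, Ltc4s, Dhrs4, Hmox1, Nr1i3 and Dbp are the diamonds.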

How the data were processed

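The authors deposited 1 log2 expression value per probe set and array, computed with RMA in Affymetrix Expression Console (core genes) per the labels; RMA and Partek are named in the submitters' processing notes. Software versions, annotation release and genome build: not given in the sources used here. Without detection calls, no low value was read as absence of a transcript. Precision is limited by the number of arrays. Array medians ranged from 5.21 to 5.38.

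Gene symbols came from GEO's platform annotation: 7603 had 1 symbol, 409 several and 785 none. All 32 members matched the RefSeq gene table (GRCr8) under the same symbols. Levels of different probe sets were not compared, and cross-hybridisation between close paralogues was not tested.

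A two-sided moderated test of strain on the 5 arrays, without covariates, was fitted with lmFit and eBayes (limma 3.58.1, R 4.3.3). The p-values of all 8797 probe sets were adjusted together by Benjamini-Hochberg, and an adjusted p under 0.05 was called past the threshold. The fit was tested on simulated arrays. Members and lists were chosen with earlier results of these data known. Every member is named. Each array's value is given for the 3 members of a family with the smallest p, and of each list the genes past the threshold and up to 3 in all by smallest p are named, unless marked as chosen later. Of 8 endothelial markers none was measured by a single-symbol probe set; 8 stellate cell, 2 cholangiocyte and 2 erythroid markers had median differences of -0.28, 0.14 and -0.44, and none of these markers passed. Proteins of the members were not compared. Alternatives were each array left out, the replicate number as a block, other shrinkage, a filter on dim probe sets, 2 further normalisations, array weights and other rules for members.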

Additional observations from a re-analysis of the deposited data

How the results depend on the processing

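The count over all probe sets was 82 in the fit as reported. It was 0 to 55 when 1 array was left out, 163 with the replicate block, 2 without variance shrinkage, 151 with an intensity trend, 149 without the dimmest 25% and 819 with array weights. Where either congenic array was left out it was 0, and 737 and 710 probe sets had an unadjusted p under 0.05 in limma. The count of members was 0 as reported and 0 to 1 when 1 array was left out (Nat8, without PD array 2). It was 1 with the replicate block (Nat8, limma, adjusted p = 0.00176), 1 without the dimmest 25% and 1 after a further quantile normalisation (Gstm3 both times), and 3 with array weights (Akr7a3, Gstm3 and Nat8), where 9.31% of all probe sets passed. It stayed at 0 with no shrinkage, with an intensity trend, after median centring, and when 11 probe sets with several fitting symbols were added. Same-numbered arrays of the strains deviated together at r = 0.050 and 0.082, so the numbers were not taken to pair them. PD array 3 has no congenic array of its number. The replicate block therefore gave the same differences as the fit without PD array 3 (2.91 for Nat8 in both), and was not a separate estimate.

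The median of the members was -0.045 to 0.16 when 1 array was left out, -0.0040 with the replicate block, 0.087 after median centring, 0.15 with array weights and 0.026 without Nat8, Nat8b and Nat8f1. The Gstm median was 0.0073 to 0.33 and the Sult median -0.051 to 0.14 when 1 array was left out. The Ugt2 median was -0.11 to 0.10 and the Akr1c median -0.062 to 0.21 when 1 array was left out, and Ugt2 was at 0.015 after median centring and 0.074 with array weights. The Gsto median was -0.012 after median centring, and the Nat median 1.90 without the dimmest 25%, where 2 of its 4 genes were no longer tested.

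Values near 0 changed sign. After median centring Akr1c2, Sult1c3, Ugt2b35 and Pgm1 were at 0.016, 0.00082, 0.015 and 0.025, and after a further quantile normalisation Sult1a1 was at -0.020. With the replicate block Gstm4, Gstm5, Gsto1, Gstt2 and Pgm1 were at -0.054, -0.013, -0.020, -0.024 and 0.0050. With array weights Nat8f1, Sult1a1, Sult1c3, Ugt2b1 and Ugt2b35 were at 0.028, -0.022, 0.12, 0.37 and 0.074. Over the fits that left out 1 array the ranges were -0.22 to 0.14 (Akr1c2), -0.041 to 0.22 (Gstm2), -0.054 to 0.16 (Gstm4), -0.28 to 0.43 (Gstm5), -0.020 to 0.035 (Gsto1), -0.056 to 0.20 (Gstt2), -0.41 to 0.16 (Nat8f1), -0.048 to 0.040 (Sult1a1), -0.054 to 0.15 (Sult1b1), -0.16 to 0.12 (Sult1c3), -0.073 to 0.097 (Ugt2b), -0.38 to 0.13 (Ugt2b1), -0.11 to 0.10 (Ugt2b35) and -0.10 to 0.023 (Pgm1). The cause of these shifts was not tested.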

Other observations

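Probe sets with several gene entries, at least 1 of them of these families, were 12 in all and were not assigned to a gene. One of them lists Sult1e1 under 2 gene entries, and it measured 11.80, 11.96 and 11.92 in PD and 11.96 and 11.87 in the congenic strain (difference 0.022, limma, adjusted p = 0.966). One other includes a gene outside the families. None passed (limma, adjusted p under 0.05), 5 had differences above 0 and 7 below, and 2 had an unadjusted p under 0.05. The 4 shared by alpha class glutathione transferases (Gsta), a class in which Gsta6 was also lower, ran from -0.64 to 0.12, with 3 below 0 and 2 without overlap between the strains. The one with the lowest difference measured 10.70, 11.14 and 10.85 in PD and 10.24 and 10.27 in the congenic strain (limma, adjusted p = 0.163). The probe set common to the Ugt1 genes, which include the bilirubin-conjugating enzyme, measured 6.82, 7.32 and 6.94 in PD and 7.37 and 7.45 in the congenic strain (difference 0.38 ± 0.18 SE; limma, adjusted p = 0.438). The 4 sulfotransferase probe sets, that of Sult1e1 included, ran from -0.54 to 0.41, the 2 of the Ugt2 family from -0.22 to 0.018, and that of the arylamine N-acetyltransferases was at -0.29.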
